A study of Mus musculus with 18 samples.

Results

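The loss of Daxx was examined in mouse embryonic stem (ES) cells kept in serum with leukaemia inhibitory factor (LIF), by comparing 3 Daxx-null with 3 wild-type libraries out of 18 libraries of RNA sequencing. The 6 libraries were chosen by their labelled genotype and culture. Both groups were E14Tg2a cells, an established male mouse ES cell line, grown on gelatin or coated plates in medium with 10% fetal bovine serum and 1000 units/mL LIF. The wild-type cells were the parental line and the Daxx-null cells an engineered line without functional Daxx. The part of Daxx that was removed and the number of clones are not stated in the labels, so any property of that 1 line other than the deletion cannot be told apart from the loss of Daxx. The other 12 libraries held both genotypes in 2i with vitamin C and in retinoic acid. They entered the filters that chose the features tested, the repeat pseudocount, some alternative scalings and the estimate of spread. They also entered a final comparison of effects between cultures.

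Daxx is a histone chaperone. Together with the chromatin remodeller Atrx it places the histone variant H3.3 at pericentromeric and telomeric repeats and at endogenous retroviruses, and much of the protein sits in PML nuclear bodies. In ES cells this pathway is known for its link to histone H3 lysine 9 methylation by Setdb1 and Trim28, which holds retroviral elements silent. Serum with LIF keeps ES cells in a mixed, DNA-methylated pluripotent state in which some cells drift towards primitive endoderm or towards the primed epiblast.

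Expression values are FPKM on the authors' scale, by inference about 10 times the conventional unit. A gene was called higher or lower at a Benjamini-Hochberg adjusted p under 0.05 in limma, fitted on log2(FPKM + 0.5), and each difference is Daxx-null minus wild type on that log2 scale, ± standard error. Depth recovered from the steps between low values was 109.9 to 126.4 M counting units in the Daxx-null libraries and 84.2 to 92.8 M in wild type (M, 10 to the power of 6; exact two-sided permutation p = 0.1, the smallest that 3 against 3 allows). None of the 9 fixed ES cell markers was called, and their summed FPKM ran from 30943 to 37334 in Daxx-null and from 28938 to 29443 in wild type. The groups did not overlap for Pou5f1, Utf1 and Zfp42, which were higher in Daxx-null, or for Tdgf1, which was lower. Of 6 primitive endoderm markers 5 were lower and 1 higher, with sums of 18.5 to 21.7 FPKM in Daxx-null against 59.2 to 78.0. Of 7 feeder fibroblast markers 4 were lower (sums of 27.4 to 34.3 against 60.8 to 102.8), and of 4 tested markers of blood and endothelium 2 were lower (90.2 to 116.9 against 200.5 to 238.7). The last sum was mostly Pecam1, an adhesion gene that ES cells express too, at 113, 86.8 and 87.8 (Daxx-null) against 229, 192 and 224 (wild type). The leukocyte marker Ptprc, too low to be tested, was listed at 0 in all 3 Daxx-null libraries and was near 0 in wild type too. The embryonic globin gene Hbb-y was listed at 0 in all 3 wild-type libraries. It stood at 0, 0.515 and 0.281 in Daxx-null and was not called. In bulk RNA, fewer cells of a type and less RNA per cell cannot be told apart.

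Of 18002 genes tested, 1672 were higher (9.29%) and 3406 were lower (18.9%) in Daxx-null cells, and 28.2% were called in all. All 3 Daxx-null libraries lay above all 3 wild-type libraries for 3438 genes and below them for 6406 (35.6%). At least 2-fold differences were found for 360 of the higher and 1323 of the lower genes. The direction of the balance rested on the scaling. The median difference over all genes was -0.12, and 32.9% of called genes were higher, whereas quantile normalization moved the median to 0.01 with 2178 higher and 2093 lower genes, and median-ratio scaling gave 2446 and 2528. The share of called genes that were higher rose to 51.0% and 49.2% in these fits. Small differences near that shift are therefore read here against it, and the groups below are given with the scaling where it moved a count of 4 or more, before or after, by more than 1.5 times. Smaller counts also moved in some fits and are not followed for each group. List counts below are read beside 9.29% higher and 18.9% lower over all genes. A list near those shares does not stand out.

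Chromosomes did not move alike. Chromosome 1 held 232 higher and 85 lower genes of 1035 tested, and chromosome 14 held 113 higher and 66 lower of 619, while chromosome 11 held 75 higher and 443 lower of 1470. Chromosomes 8, 19 and 6 also leaned to lower genes, with 48 higher and 232 lower of 946, 20 and 138 of 619, and 58 and 191 of 882. Part of this followed 1 library. Among well-expressed genes the median deviation of chromosome 1 from the mean of the 6 libraries was -0.24 in wild-type replicate 3 and -0.06 and -0.07 in the other wild-type libraries, and that library also stood apart on chromosomes 6, 8, 14 and 19. Chromosome 11 differed by genotype in every library, at -0.12, -0.08 and -0.08 in Daxx-null and 0.10, 0.11 and 0.08 in wild type. Chromosome 1 did so too, at 0.09, 0.14 and 0.13 in Daxx-null against the wild-type values above. The genotypes did not overlap on chromosomes 6, 8, 14 and 19 either, nor on 2, 4, 5, 7, 9, 10, 12 and 15. They overlapped on 3, 13, 16, 17, 18 and X. Separate groups therefore do not single a chromosome out, and the size of the gap differed between chromosomes. Wild-type replicate 3 correlated with its sister libraries at 0.985 and 0.983, against 0.994 between those 2, and Daxx-null replicate 1 with its sisters at 0.988 and 0.987, against 0.995. Without wild-type replicate 3, 1079 genes were higher and 2568 lower, and 63.0% of the higher and 72.1% of the lower genes called with all libraries were called again. When each library's chromosome medians were removed, 2543 genes were higher and 2448 lower. Copy number of a chromosome and regulation of its genes cannot be told apart in RNA.

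**Figure D1:**
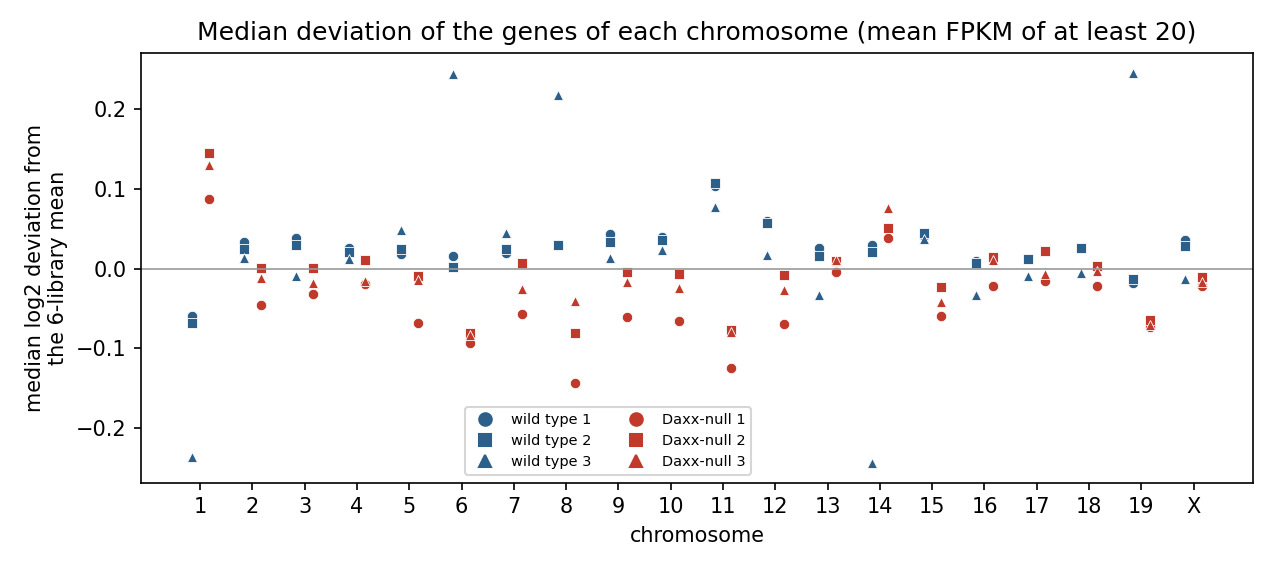
Median log2 deviation of genes with a mean FPKM of at least 20 from the mean of the 6 serum libraries, by chromosome. Each point is 1 library (blue wild type, red Daxx-null). Wild-type replicate 3 lies far from its sisters on chromosomes 1, 6, 8, 14 and 19, and on chromosome 11 every wild-type point lies above every Daxx-null point. On chromosome 1 every wild-type point lies below every Daxx-null point. The genotypes are separate on most other chromosomes too.

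Daxx itself, on chromosome 17 at 34046390 to 34052535 (mm9, plus strand), stood at 68.7, 72.2 and 73.7 (Daxx-null) against 307, 319 and 353 (wild type) (all expression values are in FPKM). The groups did not overlap and the difference was -2.18 ± 0.0716, adjusted p = 2.4e-11. Transcript from the locus was thus reduced and not absent, and since the deleted part was not given, the remaining signal does not say whether it encodes protein. Within 500 kb of the Daxx start lay 53 deposited genes, of which 46 were tested, 8 were higher and 12 lower, with a median of -0.07. Zbtb22, a zinc finger gene that starts 6.7 kb downstream, stood at 193, 167 and 184 (Daxx-null) against 108, 109 and 117 (wild type), a difference of 0.70 ± 0.0780, adjusted p = 1.6e-05. Vps52, a tethering factor of endosome-to-Golgi transport, was also higher (difference 0.30). The ribosome biogenesis gene Wdr46 was higher by 0.55 but was not called without Daxx-null replicate 1, 2 or 3 or wild-type replicate 1 or 3 (adjusted p = 0.1, 0.061, 0.06, 0.088 and 0.092). The lower neighbours were mostly genes of the major histocompatibility complex (MHC), which this interval contains. The class II gene H2-Ab1 stood at 3.38, 2.87 and 2.84 (Daxx-null) against 15.4, 21.2 and 18.6 (wild type), a difference of -2.41 ± 0.346, adjusted p = 0.00014. Tap2, which pumps peptides into the endoplasmic reticulum for class I molecules, was at 2.21, 2.75 and 3.69 (Daxx-null) against 11.6, 11.8 and 7.96 (wild type), -1.70, and it was not called without Daxx-null replicate 1 (adjusted p = 0.056). The class I gene H2-K2 was at 4.14, 10.5 and 8.84 (Daxx-null) against 19.4, 25.1 and 21.0 (wild type), -1.51. Class I genes are near-identical copies, so reads may be split among them.

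The steepest rise was that of Grin2c, which encodes an NMDA receptor subunit of neurons. It stood at 102, 97.9 and 96.2 (Daxx-null) against 5.48, 3.56 and 5.04 (wild type), a difference of 4.28 ± 0.338, adjusted p = 6e-07. The groups lay far apart, and the Daxx-null libraries lay close together. Nkx6-3, a homeobox gene of the gut, was at 170.0, 145 and 149 (Daxx-null) against 15.5, 16.0 and 14.8 (wild type), 3.28. The ascorbate transporter gene Slc23a1 was at 85.8, 116 and 106 (Daxx-null) against 9.80, 10.9 and 8.10 (wild type), 3.35. Creb5, a CREB-family transcription factor gene, was at 32.5, 39.0 and 37.9 (Daxx-null) against 2.69, 2.74 and 3.27 (wild type), 3.44. These genes come from unrelated families, and each was low but measurable in wild type. Smaller absolute levels were reached by Samd5 (26.8, 25.2 and 18.4 in Daxx-null against 0.572, 1.09 and 1.30), by the orphan receptor gene Gpr83 (10.4, 11.3 and 12.5 against 0.550, 0.695 and 0.561), by Fam159b (21.8, 20.2 and 18.8 against 1.00, 1.59 and 1.90) and by the inflammasome gene Nlrc4 (19.6, 21.4 and 22.9 against 1.24, 2.28 and 1.32). Nap1l2, a nucleosome assembly gene of the X chromosome, rose from 5.20, 8.30 and 3.31 to 53.8, 56.0 and 58.0 (3.29). Of the 26 ionotropic and neurotransmitter receptor genes tested, 2 were higher, Grin2c and Chrna9 (1.50), and 4 were lower. One of the lower genes was Grin1, the obligate NMDA receptor subunit, at 6.22, 6.24 and 4.85 (Daxx-null) against 27.7, 30.8 and 30.9 (wild type), -2.28.

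Growth regulators moved in both directions. Of 28 tested genes among G1 cyclins, Cdk inhibitors and Myc genes, 10 were higher and 10 lower, the latter 6 under quantile normalization and 6 without wild-type replicate 3. Ccnd2, encoding cyclin D2, stood at 198, 234 and 234 (Daxx-null) against 31.2, 41.3 and 15.7 (wild type), a difference of 3.00 ± 0.775, adjusted p = 0.0091. Wild-type replicate 3 was the lowest of its group. Myc was at 507, 515 and 541 (Daxx-null) against 109, 145 and 75.5 (wild type), 2.29 ± 0.334, adjusted p = 0.00016, and Cdk6, a partner of D cyclins, at 83.0, 86.0 and 85.9 (Daxx-null) against 32.2, 34.0 and 18.3 (wild type), 1.63. All 3 genes were higher in every Daxx-null than in every wild-type library. Inhibitors of the D cyclin kinases went the other way. Cdkn2a, the Ink4a/Arf locus, stood at 15.7, 17.2 and 19.9 (Daxx-null) against 62.5, 63.6 and 182 (wild type), -2.33 ± 0.330, adjusted p = 0.00013. Wild-type replicate 3 was about 3 times as high as its sisters here. The neighbouring Cdkn2b was at 3.15, 2.79 and 7.64 (Daxx-null) against 15.6, 14.0 and 26.1 (wild type), -1.99 and Cdkn2c was lower by the same test (-1.82). Cdkn1a, which encodes p21, was at 241, 238 and 223 (Daxx-null) against 620.2, 537 and 671 (wild type), -1.37. An exception among the inhibitors was Cdkn1c, an imprinted gene, at 547, 709 and 823 (Daxx-null) against 195, 219 and 186 (wild type), 1.77. Mitotic genes gave 2 higher and 4 lower of 30, and 1 lower with median-ratio scaling or chromosome medians removed and 2 without wild-type replicate 3. Amino acid response genes, which mark the integrated stress response, gave 5 higher and 3 lower of 20, led by Chac1 (1.55).

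Signalling ligands and their targets also moved in both directions. Among 29 Nodal and BMP genes 6 were higher and 6 lower. Leaving out a library gave 3 without Daxx-null replicate 1 or wild-type replicate 1 or 2 for the higher genes and 3 without Daxx-null replicate 1 or wild-type replicate 1 for the lower, which were 3 under quantile normalization. Bmp4 stood at 406, 372 and 403 (Daxx-null) against 106, 108 and 156 (wild type), 1.69. Id3, a direct BMP target, was at 370.4, 216 and 211 (Daxx-null) against 43.7, 40.5 and 19.3 (wild type), 2.96 ± 0.454, adjusted p = 0.00024, and Id1 was also higher (1.16). Bmp7 was lower (-1.77). In the FGF and ERK list of 29 genes, 3 were higher (5 without Daxx-null replicate 1) and 5 lower. The immediate early gene Ier3 was at 25.5, 77.1 and 63.8 (Daxx-null) against 389, 393 and 274 (wild type), -2.78, and the receptor gene Fgfr4 was lower (-2.02). Of 32 Wnt pathway and caudal streak genes, 5 were higher and 4 lower (2 under quantile normalization). The transcription factor genes Evx1 (2.60), Cdx4 (2.29) and Tal1 (1.71) were among the higher, and the Wnt feedback gene Nkd1 among the lower (-1.71). None of the 4 fixed mesoderm markers was called, with sums of 10.6 to 25.1 FPKM in Daxx-null and 16.4 to 28.2 in wild type.

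**Figure D2:**
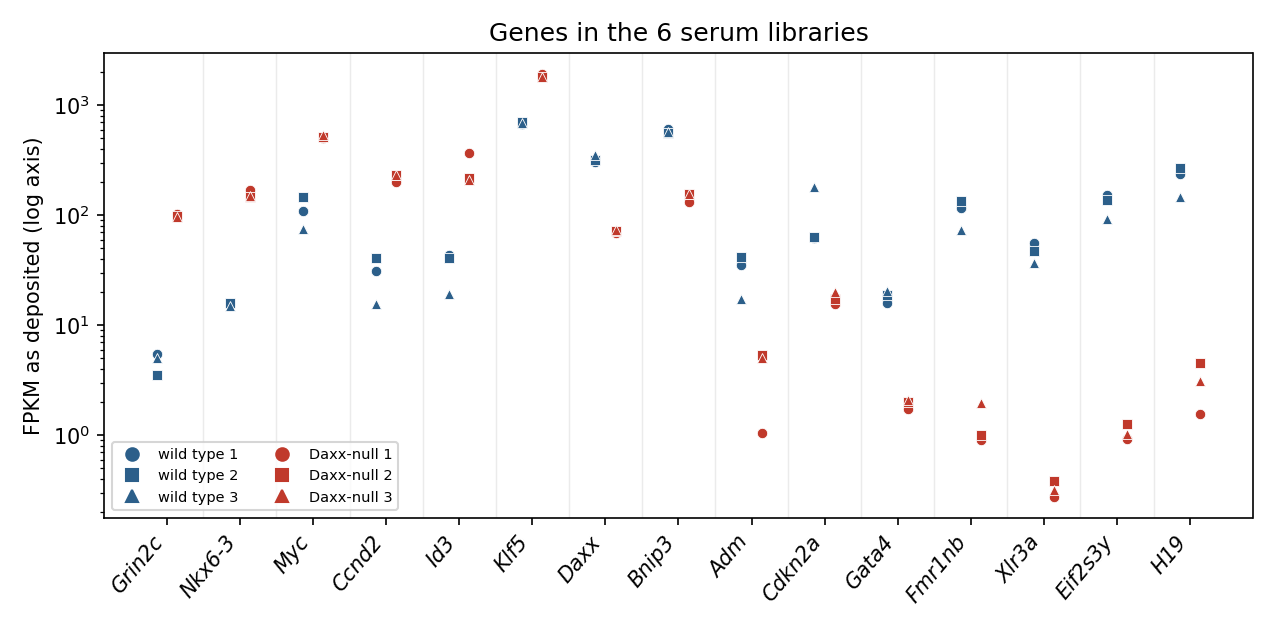
FPKM as deposited, on a log axis, of 15 genes in the 6 serum libraries. Each point is 1 library (blue wild type, red Daxx-null), and no gene shown has overlapping groups.

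Most genes of the response to low oxygen were lower. The factors Hif1a and Epas1 pair with Arnt and bind the hypoxia response element, whose core reads ACGTG or GCGTG. Normally the prolyl hydroxylases Egln1 and Egln3, themselves targets, mark these factors for destruction in oxygen. Of 30 tested hypoxia-response genes, 22 were lower and 2 higher, with a median of -1.03 against -0.12 for all genes. The count of lower genes was 16 under quantile normalization, 19 with chromosome medians removed and 21 without wild-type replicate 3. The core was found, on either strand and with overlapping matches counted, in the promoter window (250 bases before to 50 after the start) of 22 of 23 list genes that had one in RefSeq, including 16 of 17 lower genes. Of all 27025 genes with a window, 46.7% held it. A match is a description of the letters and not evidence of binding. The list was drawn from known targets, so their share says nothing about these data. The windows of 3 of the genes with the steepest falls are printed to show how many cores a promoter can hold. They are RefSeq windows of GRCm38.p6, 5′ to 3′ on the strand of the gene, with the core in capitals on whichever strand it reads: Adm at chr7:110627407-110627706 (plus strand), Bnip3 at chr7:138909457-138909756 and Ankrd37 at chr8:45999801-46000100 (both minus strand).
Adm: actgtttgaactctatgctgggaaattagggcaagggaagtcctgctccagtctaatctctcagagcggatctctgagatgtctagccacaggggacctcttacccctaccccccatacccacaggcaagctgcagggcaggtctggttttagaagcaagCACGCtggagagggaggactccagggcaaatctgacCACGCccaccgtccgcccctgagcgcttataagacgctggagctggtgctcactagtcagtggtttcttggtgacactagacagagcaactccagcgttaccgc
Bnip3: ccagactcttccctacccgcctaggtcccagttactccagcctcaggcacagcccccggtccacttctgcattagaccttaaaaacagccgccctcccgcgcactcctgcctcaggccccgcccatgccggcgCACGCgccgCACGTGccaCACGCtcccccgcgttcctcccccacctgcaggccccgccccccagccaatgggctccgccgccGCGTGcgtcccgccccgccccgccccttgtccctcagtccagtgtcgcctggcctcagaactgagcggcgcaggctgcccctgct
Ankrd37: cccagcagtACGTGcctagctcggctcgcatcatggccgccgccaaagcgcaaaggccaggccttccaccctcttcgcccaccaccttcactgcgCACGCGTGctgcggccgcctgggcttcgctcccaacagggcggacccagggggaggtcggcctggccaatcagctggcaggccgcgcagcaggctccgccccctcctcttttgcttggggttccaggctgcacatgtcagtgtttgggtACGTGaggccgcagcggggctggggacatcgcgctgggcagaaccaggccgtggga
Adm held 2 matches, Bnip3 5 and Ankrd37 4.

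Adm, encoding the vasodilator peptide adrenomedullin, stood at 1.06, 5.41 and 5.08 (Daxx-null) against 35.3, 41.8 and 17.5 (wild type), a difference of -3.02 ± 0.453, adjusted p = 0.0002. Daxx-null replicate 1 was the lowest of its group. Ddit4, which restrains mTORC1 when oxygen is low, was at 277, 699.6 and 590.1 (Daxx-null) against 2566, 2907 and 1912 (wild type), -2.32 ± 0.341, adjusted p = 0.00018. Bnip3, a mitophagy receptor gene, was at 131, 155 and 156 (Daxx-null) against 607, 561 and 569.6 (wild type), -1.97 ± 0.407, adjusted p = 0.0021. The groups were separate for each of these genes and their libraries close for Bnip3. Ndrg1, a stress-response gene, was at 24.3, 37.2 and 33.5 (Daxx-null) against 129, 134 and 139 (wild type), -2.08. Egln1 was at 56.0, 74.3 and 68.6 (Daxx-null) against 193, 202 and 214 (wild type), -1.61 ± 0.129, adjusted p = 6.4e-07. The collagen prolyl hydroxylase gene P4ha2 (-1.76) and Ankrd37 (-1.83) were lower as well. Vegfa, the main angiogenic growth factor, was lower by less, at 159.9, 183 and 168 (Daxx-null) against 294, 297 and 228 (wild type), -0.67, and it was not called in the other scalings or without Daxx-null replicate 1, 2 or 3 or wild-type replicate 1 or 2 (adjusted p = 0.12, 0.065, 0.094, 0.12 and 0.12). The 2 genes that rose were the factors themselves: Epas1 at 176, 160.4 and 165 (Daxx-null) against 69.2, 58.7 and 60.2 (wild type), 1.41 and Hif1a at 254, 236 and 245 (Daxx-null) against 205, 204 and 176 (wild type), 0.33. Hif1a was not called under quantile normalization.

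Glycolysis, a pathway whose enzymes are hypoxia targets in part, gave 15 lower and no higher genes of 25 and a median of -0.74. The count of lower genes ran from 13 to 17 over the scalings and was 13 without wild-type replicate 3. With chromosome medians removed, 1 gene was higher. Eno2, the neuronal enolase gene, stood at 7.35, 12.9 and 15.5 (Daxx-null) against 53.1, 53.6 and 81.9 (wild type), -2.38 ± 0.461, adjusted p = 0.0014. Ldhb, a lactate dehydrogenase subunit gene, was at 105, 92.6 and 82.3 (Daxx-null) against 422, 353 and 439 (wild type), -2.11 ± 0.167, adjusted p = 6e-07. Aldoc (-1.70) and the regulator of phosphofructokinase Pfkfb3 (-1.50) followed. Pgk1 was lower at 221, 259 and 223 (Daxx-null) against 492, 500.4 and 503 (wild type), -1.09, while Gapdh (-0.29), Pkm (-0.31) and Ldha (-0.43) were not called, except that quantile normalization called Pkm lower.

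**Figure D3:**
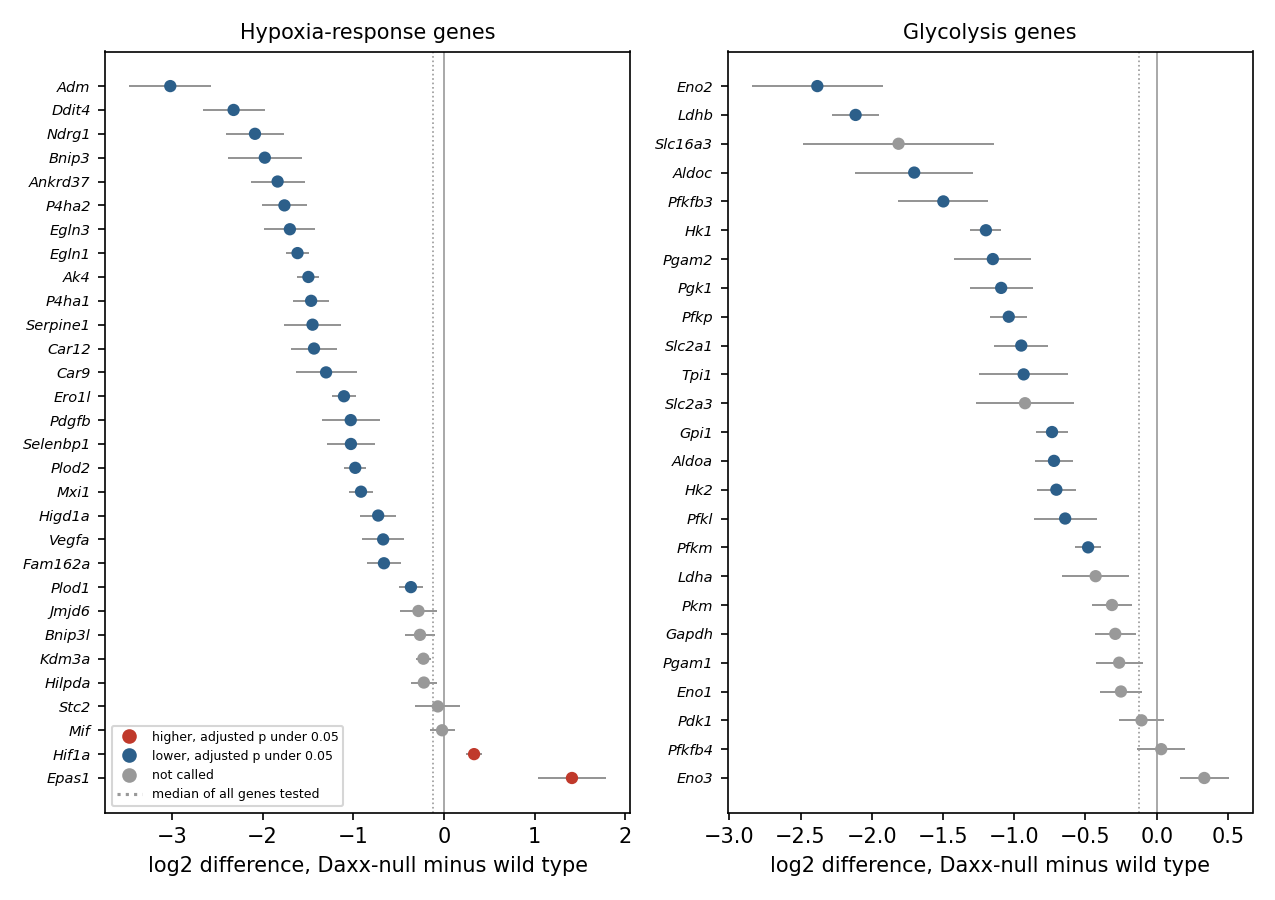
Log2 difference (Daxx-null minus wild type) ± standard error, from limma, for each tested gene of the hypoxia-response (left) and glycolysis (right) lists. Blue points were called lower, red points higher, and the dotted line is the median of all genes tested; Hif1a and Epas1 lie to the right of 0 and 22 hypoxia-response genes to the left are blue.

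The steepest falls lay on the sex chromosomes and in imprinted genes. A block of the X chromosome from Pnma5 to Xlr5c (X, 70279320 to 70535854, mm9, 256.5 kb) held 15 tested genes, of which 11 were lower and none higher, with a median of -2.25. This block was chosen after its values were seen. The rest of the X chromosome gave 53 higher and 124 lower of 717 tested genes and a median of -0.13. The Xlr genes of the block are lymphocyte-regulated X-linked genes with homology to a synaptonemal complex protein, several of them imprinted. Xlr3a stood at 0.278, 0.387 and 0.316 (Daxx-null) against 56.4, 47.2 and 37.1 (wild type), a difference of -5.82 ± 0.194, adjusted p = 2.4e-11. Xlr3b was at 0.113, 0.394 and 0.537 (Daxx-null) against 27.3, 21.7 and 14.4 (wild type), -4.66. Xlr4a was at 0.0770, 0 and 0 (Daxx-null) against 10.1, 11.3 and 6.12 (wild type), -4.16, and Pnma5, a retrotransposon-derived Gag-like gene at the edge of the block, at 3.71, 2.22 and 2.61 (Daxx-null) against 100.0, 87.0 and 68.3 (wild type), -4.69. All wild-type libraries were well above all Daxx-null libraries, and wild-type replicate 3 was the lowest wild-type library for each of these genes. In the same block F8a was not called, at 25.9, 28.2 and 22.9 (Daxx-null) against 22.9, 19.5 and 15.0 (wild type), 0.43 ± 0.163, adjusted p = 0.059, and the other scalings called it higher. Spin2d (-0.34), DXBay18 (-1.12) and Gm14685 (-1.14) were not called at levels near 1 FPKM or below, and the genes on each side, Zfp185 (-0.25) and Zfp275 (-0.29), were not called either. Expression in the block did not fall at every gene.

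The Xlr genes are a multigene family with close copies, so reads may be shared among them and single values are uncertain. To show the most alike pair of the 3 compared without gaps, the promoter windows of Xlr4a (chrX:73082458-73082757, minus strand) and Xlr4b (chrX:73214083-73214382, plus strand) are printed from RefSeq (GRCm38.p6) with CpG in capitals. They were identical at 91.8% of the 293 bases they share at the best ungapped shift, and each held 8 CpG. By the same count, the windows of Xlr3a and Xlr3b were identical at 57.7% of 239 shared bases. Those of Xlr3a and Xlr4a were identical at 40.0% of 100, at the largest shift tried. Gaps were not allowed, so an inserted or missing stretch lowers such a value. Xlr3a and Xlr3b share long runs of bases on both sides of such a stretch, and 57.7% understates their likeness.
Xlr4a: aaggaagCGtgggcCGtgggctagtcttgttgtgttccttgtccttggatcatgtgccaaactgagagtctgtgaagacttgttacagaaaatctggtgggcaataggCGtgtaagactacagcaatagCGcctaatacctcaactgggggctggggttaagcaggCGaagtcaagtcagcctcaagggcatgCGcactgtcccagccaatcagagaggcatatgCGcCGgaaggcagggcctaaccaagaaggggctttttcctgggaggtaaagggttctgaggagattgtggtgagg
Xlr4b: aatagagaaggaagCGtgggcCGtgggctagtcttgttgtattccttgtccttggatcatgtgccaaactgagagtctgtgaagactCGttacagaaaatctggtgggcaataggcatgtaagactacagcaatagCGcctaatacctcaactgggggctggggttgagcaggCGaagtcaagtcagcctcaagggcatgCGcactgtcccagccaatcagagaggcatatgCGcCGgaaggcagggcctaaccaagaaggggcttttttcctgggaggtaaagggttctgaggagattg
The median over all genes with a window was 7 CpG, and no methylation was measured.

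**Figure D4:**
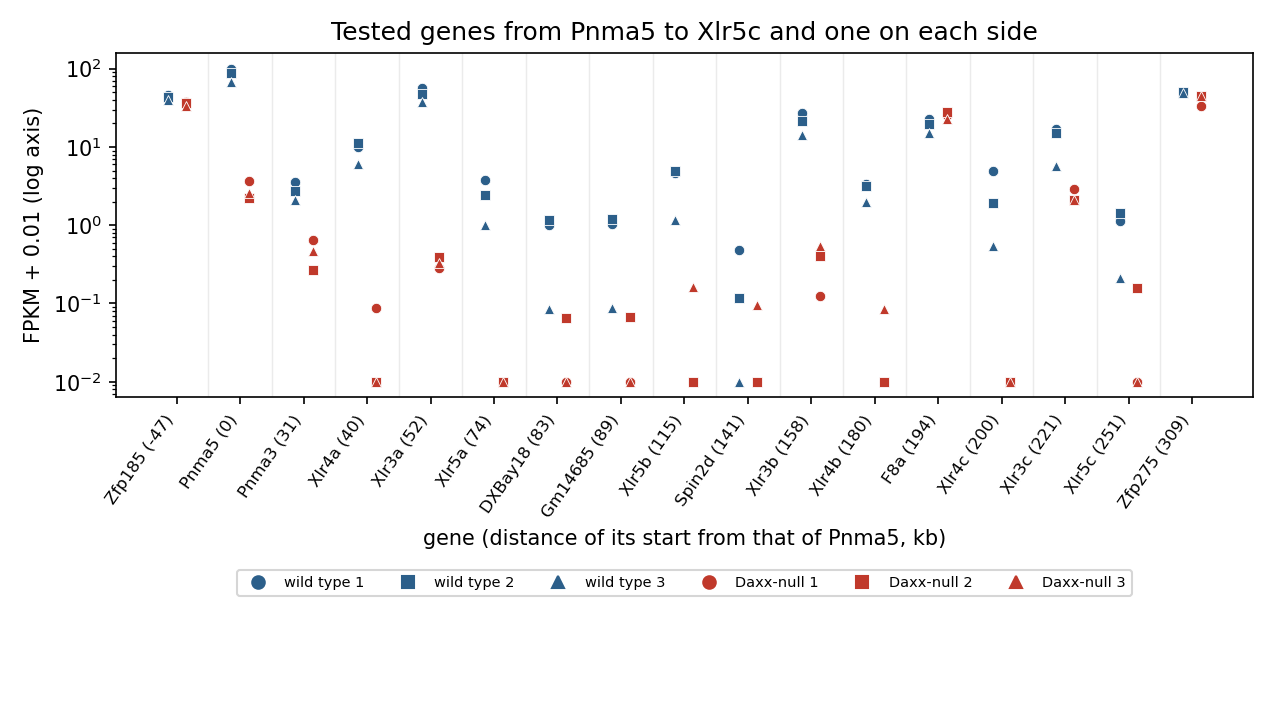
FPKM + 0.01, on a log axis, of the 15 tested genes from Pnma5 to Xlr5c and 1 gene on each side, in order along the X chromosome. Each point is 1 library (blue wild type, red Daxx-null), and numbers in brackets are distances from Pnma5 in kb; the Xlr3a, Xlr3b, Xlr4a and Xlr4b points of Daxx-null lie below all wild-type points, while those of F8a, Zfp185 and Zfp275 lie near them.

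Of the whole list of 42 tested X-linked Xlr, Mage and Rhox genes, 19 were lower and none higher. Outside the block, Fmr1nb, a testis gene next to Fmr1, stood at 0.900, 1.01 and 1.95 (Daxx-null) against 117, 135 and 73.5 (wild type), -5.93 ± 0.359, adjusted p = 2.6e-08. Magea4 (-3.35), Nxf3 (-3.23), Usp26 (-2.98) and Mageb16 (-2.90), all germline-expressed genes, were lower as well. Of 8 tested Y-linked genes 5 were lower. Eif2s3y, a translation factor gene, was at 0.934, 1.26 and 1.03 (Daxx-null) against 152, 139 and 92.6 (wild type), -6.32 ± 0.235, adjusted p = 7.2e-11, and the demethylase gene Uty at 0, 0.0300 and 0.0660 (Daxx-null) against 25.2, 27.6 and 14.7 (wild type), -5.39. Zfy1 was listed at 0 in all 3 Daxx-null libraries and at 8.90, 7.43 and 4.39 in wild type. The RNA of these genes was near 0 in each Daxx-null library and present in each wild-type library. Whether the chromosome was lost or its genes were silenced cannot be told apart in RNA. Among 12 X-linked partners of Y genes and genes of the X-inactivation centre, 6 were higher and 1 lower. Xist, the RNA that coats the inactive X, was low in both genotypes at 18.4, 18.3 and 17.6 (Daxx-null) against 7.63, 7.34 and 5.07 (wild type), 1.39, and its antisense partner Tsix was at 66.9, 56.0 and 54.1 (Daxx-null) against 20.1, 21.3 and 16.2 (wild type), 1.60. Strand was not given, so reads of Xist and Tsix cannot be told apart where they overlap. Ddx3x was higher by 0.55.

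Factors of the Daxx pathway itself moved by small amounts. Of 21 genes of H3.3 chaperones and histone variants, 4 were higher and 4 lower, Daxx being 1 of the latter, and the scalings put this at 8 and 2 (median-ratio), 6 and 2 (chromosome medians removed) or 2 and 4 (quantile normalization and the authors' deposited table). Atrx, the partner of Daxx, was not called, at 198, 248 and 251 (Daxx-null) against 199, 192 and 159 (wild type), 0.34 ± 0.162, adjusted p = 0.13, but it was called higher with median-ratio scaling or chromosome medians removed. Hira (0.07), the chaperone of H3.3 at active genes, was not called. Asf1a, another histone chaperone gene, was higher at 292, 243 and 256 (Daxx-null) against 160.1, 184 and 133 (wild type), 0.74. Hjurp, the chaperone of centromeric CENP-A, was at 490.3, 492 and 493 (Daxx-null) against 346, 319 and 331 (wild type), 0.57. The H3.3 gene H3f3a was higher by 0.41, but it was not called under quantile normalization nor without Daxx-null replicate 1 or wild-type replicate 3 (adjusted p = 0.1 and 0.1). Chaf1b (-0.38) and Asf1b (-0.44), which serve replication, were lower, and the former was not called with median-ratio scaling nor the latter with chromosome medians removed.

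Genes of H3 lysine 9 methylation and HP1 silencing gave 10 higher and none lower of 26, with a median of 0.17. The count of higher genes was 5 without wild-type replicate 3 and 6 without Daxx-null replicate 2 or 3, and under quantile normalization it was 7 with 1 lower. Atf7ip2 was at 54.0, 52.3 and 50.9 (Daxx-null) against 23.8, 24.0 and 19.3 (wild type), 1.22. Its paralogue Atf7ip, which stabilises Setdb1, was at 298, 309.9 and 307 (Daxx-null) against 168, 157 and 217 (wild type), 0.77. Trim28, the corepressor that recruits Setdb1, was at 6473, 5599 and 5511 (Daxx-null) against 4090.2, 4337 and 4072 (wild type), 0.49, and it was not called under quantile normalization or without Daxx-null replicate 1 or wild-type replicate 1 or 3 (adjusted p = 0.089, 0.058 and 0.06). Zfp57, which guards imprints, was higher by 0.53. These differences were small beside those of the X-linked block. Among 24 PML body and SUMO genes 5 were higher and 3 lower. With median-ratio scaling or chromosome medians removed these became 9 and 10 higher with none lower, and none was lower without Daxx-null replicate 1 or wild-type replicate 3. Pml was at 669.6, 722 and 722 (Daxx-null) against 426, 444 and 455 (wild type), 0.67, and the SUMO protease gene Senp6 was higher by 0.60. DNA methylation genes gave 3 higher (5 with chromosome medians removed) and 3 lower of 18, with the germline Ctcf paralogue Ctcfl (-2.05) and Uhrf2 (-0.75) lower. Polycomb genes gave 6 and 7 of 34, with Jarid2 higher (0.73) and Pcgf5 lower (-1.19). The higher Polycomb genes were 10 with median-ratio scaling or chromosome medians removed, and the lower were 4 under quantile normalization and 4 without Daxx-null replicate 1 or wild-type replicate 3. Telomere genes gave 4 and 2 of 23, or 8 and 1 with median-ratio scaling and 8 and 0 with chromosome medians removed, and the higher were 1 without Daxx-null replicate 1 and 2 without Daxx-null replicate 2 or 3 or wild-type replicate 1, 2 or 3.

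The core pluripotency factors were not called. Of 32 regulators 8 were higher and 3 lower. Pou5f1 was at 11170.5, 9292 and 9265 (Daxx-null) against 7704, 7975 and 8379.5 (wild type), 0.30 ± 0.442, and neither it nor Nanog (0.17) nor Esrrb (0.16) was called. The groups did not overlap for Pou5f1, but the standard error draws on the spread in all 18 libraries, the other cultures included. The absence of a call is therefore not read as no change. Klf5 was at 1915, 1822 and 1820.0 (Daxx-null) against 681, 708 and 694 (wild type), 1.41 and Nr0b1, a partner of Esrrb on the X chromosome, at 1713, 1081 and 1085 (Daxx-null) against 444, 509 and 473 (wild type), 1.41. Gbx2, a Stat3 target that supports self-renewal, was higher by 1.42. The groups did not overlap for these called genes. The lower regulators sat on the LIF and FGF pathways: Socs3 (-0.91), the feedback inhibitor of Stat3, Lifr (-0.82) and Fgf4 (-0.74). Formative and primed epiblast genes gave 2 higher and none lower of 18, Grhl2 (1.99) and Foxd3 (1.36).

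Of 31 primitive and visceral endoderm genes, 15 were lower, 2 higher and 14 not called, with a median of -0.97. Gata4, a transcription factor of the lineage, stood at 1.74, 2.02 and 2.08 (Daxx-null) against 15.9, 18.9 and 20.7 (wild type), -2.95 ± 0.495, adjusted p = 0.00047. The basement membrane collagen gene Col4a2 was at 5.53, 6.46 and 6.93 (Daxx-null) against 40.2, 43.8 and 60.9 (wild type), -2.82, and the endocytic receptor gene Cubn was lower (-2.79), as was the proteoglycan gene Srgn (-3.67). The 2 higher genes were Sox7 (1.10) and Lamc1 (0.48), and both calls were lost when libraries were left out. Sox7 was not called without Daxx-null replicate 1, 2 or 3 or wild-type replicate 1 or 3 (adjusted p = 0.065, 0.068, 0.066, 0.12 and 0.06), and Lamc1 was not called under quantile normalization or with any 1 library left out. Extracellular matrix genes gave 15 lower and 3 higher of 37. The lower were 9 under quantile normalization, 8 without Daxx-null replicate 1 or wild-type replicate 2 and 9 without wild-type replicate 1. Feeder fibroblast genes gave 8 lower and none higher of 19, or 5 lower under quantile normalization. The lower were 4 without Daxx-null replicate 1 or wild-type replicate 2 and 5 without wild-type replicate 1. Postn, one of their markers, was listed at 0 in all 3 Daxx-null libraries. It was near the floor in wild type too, at 0.497, 0.562 and 0, and was not called (limma adjusted p = 0.34). Matrix genes are shared by endoderm, fibroblasts and ES cells, and the part of the lower fibroblast and endoderm markers in the matrix result was not tested. Hox genes gave 9 lower of 37, beside 18.9% lower over all genes, and 5 without wild-type replicate 3. Under quantile normalization 4 Hox genes were lower, where 2093 of all 18002 genes were lower. Trophoblast genes gave 1 higher and 5 lower of 21 (3 and 3 under quantile normalization), and the lower were 3 with chromosome medians removed, 1 without Daxx-null replicate 1 or wild-type replicate 2, 2 without wild-type replicate 1 and 3 without Daxx-null replicate 3. Neural genes gave 2 and 2 of 30 (3 and 0 under quantile normalization), with Pax6 higher (1.49), and blood and endothelial genes 1 and 4 of 16. The fixed neural markers summed to 561.5 to 591.1 FPKM in Daxx-null and 591.6 to 680.1 in wild type. Adhesion and epithelial genes gave 6 higher and 4 lower of 30 (7 and 1 under quantile normalization), the higher being 3 without wild-type replicate 3 and the lower 2 without Daxx-null replicate 1 or wild-type replicate 2. The tight junction gene Cldn3 was lower (-1.85).

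Of 47 meiotic and piRNA germline genes 18 were lower and 2 higher, beside 18.9% lower and 9.29% higher over all genes. In the other scalings 9 to 11 were lower and 4 higher. With a library left out the lower genes were 7 without Daxx-null replicate 3, 9 without wild-type replicate 2 and 10 without Daxx-null replicate 2 or wild-type replicate 1. Stag3, a meiotic cohesin subunit gene, stood at 38.6, 29.4 and 29.1 (Daxx-null) against 154, 139 and 158 (wild type), -2.21 ± 0.132, adjusted p = 2.4e-08, and its partner Smc1b at 4.35, 3.51 and 3.10 (Daxx-null) against 30.0, 26.3 and 21.4 (wild type), -2.67. The testis tubulin gene Tuba3a was at 50.4, 32.1 and 29.4 (Daxx-null) against 369, 312 and 276 (wild type), -3.11, with its close paralogue Tuba3b likewise lower (-2.80). Stk31 (2.00) and Nanos3 (1.57) were the higher genes. Pramel genes, a cluster family of early embryo and germline, gave 6 lower and 1 higher of 9, with Pramel6 (-3.39) and Pramel7 (-2.80) lowest. Genes of the two-cell-like state gave 2 higher and 1 lower of 21, and 6 higher under quantile normalization. Dux, the factor that switches that state on, was higher by 0.89, and it was not called without Daxx-null replicate 2 or 3 or wild-type replicate 1 or 3 (adjusted p = 0.1, 0.054, 0.057 and 0.09).

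Imprinted genes diverged from one another. H19, the maternally expressed RNA of the Igf2 locus, stood at 1.55, 4.57 and 3.14 (Daxx-null) against 238, 268 and 146 (wild type), a difference of -5.97 ± 0.917, adjusted p = 0.00024. Grb10, a growth inhibitor gene, was lower as well (-3.66), while Cdkn1c was higher as given above. Over 28 genes of the maternal allele 5 were higher and 5 lower (3 under quantile normalization), and leaving out any 1 library gave 2 to 4 higher, the fewest without wild-type replicate 3, and 3 to 4 lower. Nnat, a paternally expressed gene, was at 7.98, 11.1 and 12.5 (Daxx-null) against 164, 177 and 97.8 (wild type), -3.71, and Zim3 (-2.86) and Usp29 (-2.13) of the Peg3 domain were lower. Over 32 genes of the paternal allele 2 were higher (4 with chromosome medians removed) and 7 lower. The allele of origin was not measured.

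Of 29 MHC class I presentation genes 9 were lower and 1 higher, beside 18.9% lower over all genes, or 6 and 2 under quantile normalization and 5 without Daxx-null replicate 1 for the lower. B2m, the shared light chain of class I molecules, lies outside the MHC and stood at 50.5, 58.6 and 51.8 (Daxx-null) against 132, 144 and 125 (wild type), -1.31. Of 44 interferon-stimulated genes 12 were lower and 2 higher, with 9 lower under quantile normalization, where 2093 of all 18002 genes were lower. The virus-tethering gene Bst2 was at 213, 252 and 253 (Daxx-null) against 619.9, 632 and 643 (wild type), -1.40, and Oas1b (-1.81) was lower, whereas Irf9, a subunit of the interferon-activated factor, was higher (0.84). The blood and endothelium marker sums were also lower, mostly through Pecam1, and their part in these lists was not tested. Targets of p53 gave 6 higher and 8 lower of 30. Trp53 itself was higher by 0.63, and its target Cdkn1a was among the lower genes. Cholesterol and fatty acid synthesis genes gave 12 lower and 3 higher of 31, but 6 to 8 lower in the other scalings and 7 without Daxx-null replicate 2 or 3 or wild-type replicate 3, led by Acss2 (-1.95), which makes acetyl-CoA from acetate.

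Repeat RNA was given per subfamily as FPKM per copy, scaled to a separate set of repeat reads, so a value is a share of repeat RNA. The size of that set relative to the gene reads was 11.8 ± 0.660% in Daxx-null and 11.3 ± 0.817% in wild type (SD, n = 3, exact two-sided permutation p = 0.5). Of 864 subfamilies tested 31 were higher (3.59%) and 63 lower (7.29%), 10.9% in all, with a median of -0.10. The groups did not overlap for 10.4% of subfamilies in the higher and 34.7% in the lower direction. The balance again rested on scaling: 57 and 45 under quantile normalization, 59 and 36 with libraries centred on their median, and 21 and 29 after rescaling to gene depth. Ribosomal RNA took 6.58 ± 0.945% of it in Daxx-null against 10.9 ± 1.54% in wild type, LINE-1 took 14.7 ± 0.521% against 10.9 ± 0.417%, and ERVK retroviruses 24.1 ± 1.14% against 20.4 ± 0.717% (SD, n = 3, exact p = 0.1 each). Shares of one set move against each other. As a share of interspersed repeats alone, 26 subfamilies were higher and 129 lower.

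Young LINE-1 elements were among the higher subfamilies. The L1Md subfamilies include those that still hold intact copies able to move. L1Md_T stood at 7.14, 6.43 and 6.77 (Daxx-null) against 2.38, 2.81 and 2.17 (wild type), a difference of 1.30 ± 0.182, adjusted p = 0.00046. L1Md_A was at 10.6, 8.77 and 8.98 (Daxx-null) against 4.16, 4.61 and 3.3 (wild type), 1.14 ± 0.194, adjusted p = 0.0023, and L1Md_Gf at 4.01, 3.73 and 3.92 (Daxx-null) against 1.39, 1.61 and 1.17 (wild type), 1.21. The Daxx-null libraries were more than 1.5 times any wild-type library for each of these subfamilies. L1Md_F was called at a smaller difference (0.31 ± 0.0879, adjusted p = 0.044) that did not pass with any single library left out or after rescaling, and L1Md_F2 (0.15) and L1Md_F3 (0.18) were not called. Over the 6 L1Md subfamilies 4 were higher, or 3 after rescaling to gene depth or with any 1 library left out. Of 104 older L1 subfamilies 4 were higher and 4 lower, and this balance also rested on the scaling: 13 and 1 under quantile normalization, 12 and 1 with libraries centred on their median, 3 and 1 after rescaling to gene depth, and 2 and 12 as a share of interspersed repeats. The higher were 1 without Daxx-null replicate 1 or 3 and 2 without Daxx-null replicate 2 or wild-type replicate 1, 2 or 3, and the lower 1 without Daxx-null replicate 1 or 2 and 2 without wild-type replicate 1 or 2. The 14 SINE B1 and 8 SINE B2 and B4 subfamilies gave no call, except that 2 SINE B1 subfamilies were lower under quantile normalization and 1 in a fit of the serum libraries alone.

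Endogenous retroviruses moved in both directions. RLTR4, a leukaemia virus-like family, rose in both its terminal repeat and its body: RLTR4_Mm stood at 62.7, 63.1 and 67.1 (Daxx-null) against 26.4, 25.7 and 25.3 (wild type), 1.30 ± 0.178, adjusted p = 0.00044, and RLTR4_MM-int at 59.8, 59.0 and 60.0 (Daxx-null) against 24.4, 26.6 and 24.4 (wild type), 1.23 ± 0.0812, adjusted p = 4.2e-07. The libraries within each genotype were close and the groups apart. The related MuLV-int was not called (2.77, 2.88 and 3.04 against 1.81, 1.76 and 1.79). Among 16 intracisternal A particle (IAP) subfamilies 3 were higher and 2 lower. The higher were 1 without Daxx-null replicate 3, and the lower 1 without Daxx-null replicate 1 or 3 or wild-type replicate 1, 2 or 3. IAPEz-int was at 13.4, 14.3 and 14.9 (Daxx-null) against 7.71, 7.84 and 9.52 (wild type), 0.73 ± 0.150, adjusted p = 0.0067, and IAPLTR4_I was lower (-0.91). MMERVK10C-int was higher by 0.61 but was not called after rescaling to gene depth or in the fit of the serum libraries alone. MMETn-int, an early transposon body and the most abundant element by share, was not called, at 614, 663 and 674 (Daxx-null) against 545, 558 and 502 (wild type), 0.28 ± 0.0900, adjusted p = 0.059, and it passed only with libraries centred on their median among the alternatives run, though its share of all repeat reads was 15.4 ± 0.753% for Daxx-null against 12.7 ± 0.697% for wild type (SD, n = 3, exact p = 0.1).

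MERVL-int, the retrovirus that marks the two-cell-like state, stood at 16.7, 23.3 and 23.2 (Daxx-null) against 12.9, 13.4 and 7.04 (wild type), 0.93 ± 0.267, adjusted p = 0.044, and its terminal repeat MT2_Mm was higher by 0.56. Wild-type replicate 3 was the lowest library for both. MERVL-int was not called after rescaling to gene depth, in the fit of the serum libraries alone or without Daxx-null replicate 2 or 3 or wild-type replicate 1, 2 or 3 (adjusted p = 0.11, 0.12, 0.058, 0.0503 and 0.18), and MT2_Mm was not called after rescaling, in the serum libraries alone or without Daxx-null replicate 2 or 3 or wild-type replicate 1, 2 or 3 (adjusted p = 0.12, 0.13, 0.059, 0.052 and 0.18). The major satellite GSAT_MM, the pericentromeric repeat where Daxx and Atrx place H3.3, was not called, at 6.81, 8.96 and 8.46 (Daxx-null) against 5.74, 5.42 and 6.22 (wild type), 0.44 ± 0.203, adjusted p = 0.18. RNA was enriched with oligo-dT, a step that selects against RNA without a poly(A) tail. Among the lower subfamilies, Ricksha_c, a DNA transposon of the MuDR family, stood at 1.75, 2.78 and 2.76 (Daxx-null) against 10.3, 11.5 and 9.07 (wild type), -1.88 ± 0.175, adjusted p = 1.2e-05, and ETnERV3-int at 1.28, 1.80 and 1.84 (Daxx-null) against 6.13, 6.10 and 5.66 (wild type), -1.59. Both were lower in each Daxx-null library than in any wild-type library.

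**Figure D5:**
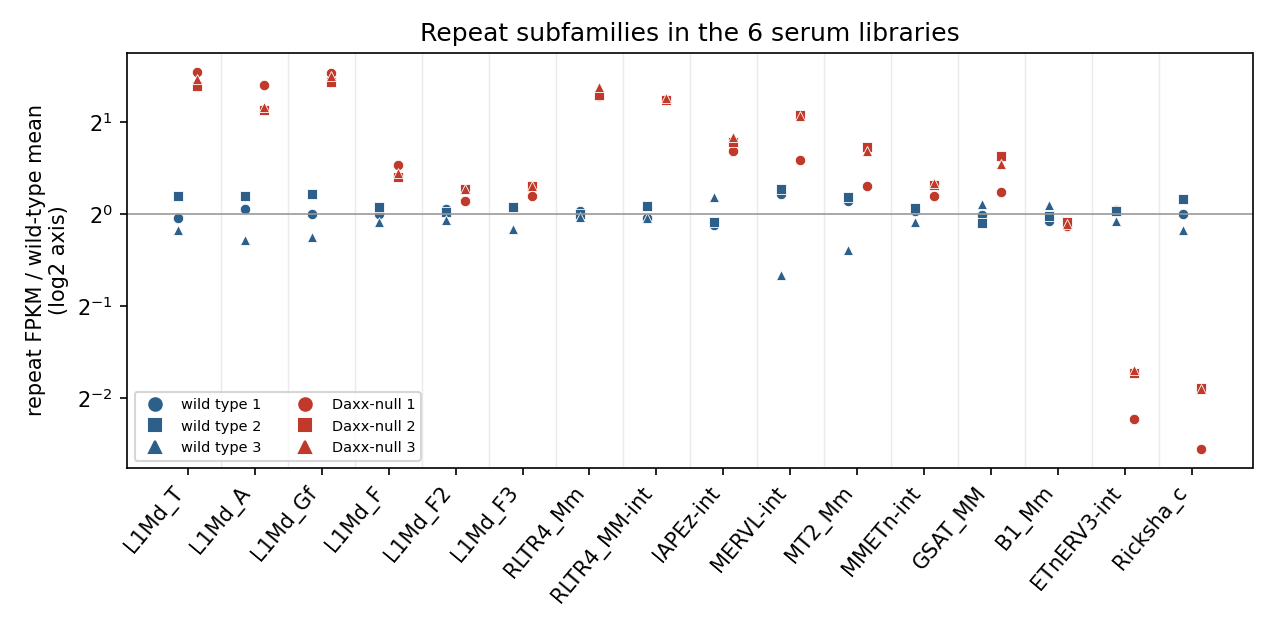
Repeat FPKM divided by the wild-type mean of the subfamily, on a log2 axis, for 16 subfamilies in the 6 serum libraries. Each point is 1 library (blue wild type, red Daxx-null); the L1Md_T, L1Md_A, L1Md_Gf and RLTR4 points of Daxx-null lie above all wild-type points, and ETnERV3-int and Ricksha_c lie below.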

How the data were processed

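RNA was sequenced from 18 libraries of 6 groups with n = 3 each. DNase treatment, oligo-dT enrichment and depletion of ribosomal RNA preceded library construction, per the labels' protocols, and neither these nor other sources used here state the strand. The submitters' processing notes name Bowtie2 2.2.6, HOMER 4.8, limma without a version, and mm9. For genes, the authors deposited FPKM of 24505 RefSeq entries in each library, whose sums fit a scale of 10 M reads, by inference. The authors also deposited repeat FPKM for 906 subfamilies, per copy and scaled to a separate repeat read set. A further table that the authors deposited holds log2 values after quantile normalization, and it served as an alternative.

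The 18002 genes that reached an FPKM of 1 in 3 or more libraries were fitted as log2(FPKM + 0.5) in limma 3.58.1 (R 4.3.3), with a variance trend. Repeats above 0 in at least 9 libraries (864) were tested on log2(FPKM + 0.526). All 18 libraries entered 1 fit with 6 group means, the contrast was Daxx-null minus wild type in serum, and p-values were Benjamini-Hochberg adjusted over all features. Differences on this scale understate the change of low genes. Depth was recovered from steps between low values (whole within a tolerance of 0.1). The series design calls the replicates independent, but the labels do not say how they were separated, so p-values measure only the spread among these libraries, which may be technical.

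The libraries, 37 gene lists and 18 repeat lists were chosen with earlier results of these data known, so their counts are descriptions. Named genes were the 12 largest and 12 smallest called differences with separate groups and 5 or more FPKM on average in the higher genotype, called genes within 500 kb of Daxx, and up to 4 called members per list, and other genes and repeats named were chosen after their values were seen. The 12 largest and 12 smallest left out names made of clone, model or accession numbers, such as those with Gm or Rik, and names starting with Mir or Snor. Promoter windows came from RefSeq (GRCm38.p6) by symbol. They matched 13039 of the genes tested (72.4%), under the 80% set as the minimum, so no comparison of promoter features between called genes is given. Alternatives were other pseudocounts, filters, scalings, a fit of serum libraries only, a replicate block and each library left out. The share of interspersed repeats was added after seeing the data. Some called list members are not reported here.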

Additional observations from a re-analysis of the deposited data

Results flagged for a closer look

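The effect of Daxx loss was compared between cultures by an interaction term in limma (adjusted p over all genes). The genes were the 5 largest rises and the 5 deepest falls in serum among those that the naming rule kept. The effect differed from serum in both other cultures for 4 of the 10, in 2i alone for 5 and in retinoic acid alone for 1. The 10 genes were picked for their serum effects, and the differences use the same serum libraries. The picking itself therefore favours a difference, and the counts are descriptions. Grin2c was highest in the Daxx-null serum libraries. It stood at 4.79, 3.62 and 5.47 FPKM in Daxx-null and 2.69, 3.08 and 8.44 in wild-type cells in 2i, and at 5.11, 7.30 and 10.5 and 8.97, 9.31 and 6.83 in retinoic acid. Its effect was lower than in serum by -4.16 in 2i (adjusted p = 1.3e-05) and -4.44 in retinoic acid (8.6e-05). For Creb5 the differences of effect were -2.23 in 2i (4.4e-04) and -3.46 in retinoic acid (1.5e-04), for Gpr83 -3.05 (3.3e-05) and -3.40 (1.5e-04), and for Fam159b -3.51 (3.6e-05) and -3.03 (0.0012). The Creb5 effect within 2i was itself called (1.21, limma adjusted p = 0.0025), but not under quantile normalization (0.48, adjusted p = 0.16). Samd5 differed in retinoic acid (-3.62, adjusted p = 0.0026), where wild-type cells held 37.8, 30.3 and 35.2 FPKM. In 2i its effect was 3.56, and the difference from serum was not called (-0.47, adjusted p = 0.56).

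The 5 genes with the deepest falls in serum by that rule, Eif2s3y, Uty, Xlr3a, Fmr1nb and H19, were expressed in Daxx-null 2i. Eif2s3y, on the Y chromosome, stood at 127, 95.0 and 103 FPKM in Daxx-null and 168, 178 and 166 in wild-type 2i, a difference of effect of 5.66 (limma adjusted p = 5.8e-08), and Uty differed by 4.45 (2.6e-07). Within 2i both were still called lower in Daxx-null, Eif2s3y with an effect of -0.66 (limma adjusted p = 0.03) and Uty with -0.94 (0.0029). Xlr3a was at 93.3, 61.7 and 76.1 against 96.0, 94.3 and 107 in 2i (5.44, adjusted p = 2.7e-08), and Fmr1nb at 431, 208 and 311 against 327, 338 and 308 (5.84, 1.2e-06). H19 was at 165, 298 and 197 in Daxx-null 2i and 527, 429 and 14.6 in wild type, where 1 library stood far below the others (6.48, 0.0010). In retinoic acid the difference of effect from serum was not called for any of the 5 (adjusted p = 0.30 to 0.996). There, in Daxx-null cells, Eif2s3y was at 0.149, 0.0840 and 0.699 FPKM and Fmr1nb was listed at 0, 0.523 and 0.204. H19 stood at 14.9, 43.4 and 38.4 there, above its level in Daxx-null serum, and at 5690, 6619 and 8122 in wild-type cells.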

How the results depend on the processing

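Counts of genes past the threshold moved with the scaling, the size required and the libraries kept. Genes higher in Daxx-null, 1672 as reported, were 2543 with chromosome medians removed, 360 when a 2-fold difference was also required, and 1079 to 1377 with 1 serum library left out. Genes lower, 3406 as reported, were 2093 under quantile normalization, 2146 in the authors' deposited log2 table and 1323 with 2-fold, and 2348 to 2832 with 1 library left out. With serum libraries alone 2392 were higher and 4526 lower. Repeats higher (31) were 57 under quantile normalization, 59 with libraries centred on their median and 17 to 26 with 1 library left out, and repeats lower (63) were 36 when centred, 29 when rescaled to gene depth, 129 as a share of interspersed repeats, which was added after seeing the data, and 29 to 38 with 1 library left out. Silencing genes of H3 lysine 9 called higher were 5 to 7 with 1 library left out, X-linked Xlr, Mage and Rhox genes lower were 16 to 19, glycolysis genes lower 13 in each case, and hypoxia-response genes lower 18 to 21. For Uty the difference of the Daxx effect in retinoic acid from serum, -0.07 and not called, was 0.36 under quantile normalization. The cause of these changes was not tested. Same-numbered libraries of the genotypes did not deviate together (correlations of -0.04, 0.04 and -0.06 over 13157 genes), so the numbers do not pair them. A replicate block gave 1388 higher and 2974 lower genes in the fit of all libraries, 1820 and 3351 in serum alone, and 16 higher and 30 lower repeats, with 2 of the 6 L1Md subfamilies higher and MMERVK10C-int, MERVL-int and MT2_Mm not called. Over 208 named genes, 3226 of 3530 alternative fits kept the call, 285 lost it, for 55 genes, and 19 gained it. No named gene reversed its direction in serum. Depth limits low genes, and differences under about 0.1 on the log2 scale are within the shift between scalings.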
